A study of Mus musculus with 45 samples.

Results

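The comparison set the step between 2 cell types of the fetal mouse liver in 1 genotype against the same step in another. The step is the Ter119+ level minus the Kit+ level of a gene on the log2 scale, and the interaction is the step in VavCre Rpl5flox/+ minus the step in Rpl5flox/+. It used 12 of the 45 libraries of the series: 3 of VavCre Rpl5flox/+ Ter119+ cells, 3 of VavCre Rpl5flox/+ Kit+ cells, 3 of Rpl5flox/+ Ter119+ cells and 3 of Rpl5flox/+ Kit+ cells. All 12 were made from cytoplasmic poly(A) RNA of fetal livers at E15.5. Both genotypes carry 1 floxed and 1 wild-type Rpl5 allele, and the VavCre transgene, which is active in blood cells from the stem cell on, deletes the floxed one, so that the liver's other cells keep both. Ter119 marks maturing erythroid cells, and Kit marks stem and progenitor cells. Magnetic beads took the Kit+ cells first and the Ter119+ cells from what was left, every preparation had 25 µg/mL emetine for 15 min, and cells of embryos with the same genotype were pooled. Below, VavCre stands for VavCre Rpl5flox/+ and control for Rpl5flox/+. Of 13449 genes in the table, 11281 had a mean normalized count (reads divided by the library's size factor) of at least 10 and were tested. Nothing in the labels ties the 3 libraries of a group to separate litters beyond their pools, so a p-value here weighs a difference against library-to-library spread alone, part of which may be technical.

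As background, red cells form from Kit+ progenitors that leave the progenitor programme under Gata1, Tal1 and Klf1, divide a few more times, and fill with globin and heme while they cease to make ribosomes. They then condense and expel the nucleus and clear their organelles. Rpl5 is a protein of the large ribosomal subunit that also sits in the 5S particle which restrains Mdm2, the brake on p53. Loss of 1 copy in humans causes Diamond-Blackfan anaemia, in which red cell precursors fail.

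Rpl5 itself (chromosome 5, 107900508 to 107909005 in GRCm38.p6) was measured first. Its normalized counts were 455, 496 and 549 in VavCre Ter119+ and 576, 579 and 437 in VavCre Kit+ libraries, against 295, 351 and 459 in control Ter119+ and 1096, 1112 and 930.3 in control Kit+ libraries. In Kit+ cells the VavCre libraries lay below the controls without overlap (-0.97, adjusted p = 0.000994), and in Ter119+ cells, where the groups overlapped, their mean was higher (0.44, adjusted p = 0.0232). The Ter119+ result goes against the label, so these libraries are called the labelled VavCre Ter119+ libraries. Among 49 large-subunit genes, Rpl5 ranked 5 from the lowest for this Ter119+ difference and was 0.49 below the median of the other 48. In Kit+ cells it ranked 2 and was 1.30 below their median. The step of Rpl5 was not called in VavCre cells (-0.08, adjusted p = 0.765) and was -1.49 in controls, with an interaction of 1.41 ± 0.23 (SE, adjusted p = 0.000273). The gene overlaps Dipk1a, and processed pseudogenes can share its reads.

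The libraries held 50 to 53.6 M reads in labelled VavCre Ter119+, 22.9 to 42.1 M in VavCre Kit+, 54 to 58.8 M in control Ter119+ and 31.7 to 41.6 M in control Kit+. Globin reads took 28.3 to 40% of the labelled VavCre Ter119+ and 0.645 to 0.764% of the VavCre Kit+ libraries, against 52 to 63.4% of the control Ter119+ and 1.94 to 2.64% of the control Kit+ libraries. Control Ter119+ replicate 3 lay nearer to the Kit+ libraries on the first principal component than the other two control Ter119+ libraries, and results are given without it where it decides them. Late erythroid markers (7 genes, summed) were 2158276 to 3719400.3 in labelled VavCre Ter119+ and 37157 to 44894 in VavCre Kit+, against 7364015 to 18091399 in control Ter119+ and 94300.0 to 126824 in control Kit+. Most of each sum came from the globins Hba-a1 and Hbb-bt, so it largely repeats the globin share. The Kit+ progenitor markers (5 genes) were 2838 to 2905 in labelled VavCre Ter119+ and 5373 to 6039 in VavCre Kit+, against 281 to 656 in control Ter119+ and 4242 to 4969 in control Kit+, so that they separated the cell types less in VavCre than in control libraries. Every marker of the 9 sets had reads in each group. In bulk libraries, fewer cells of a kind and less RNA per cell cannot be told apart.

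**Figure D1:**
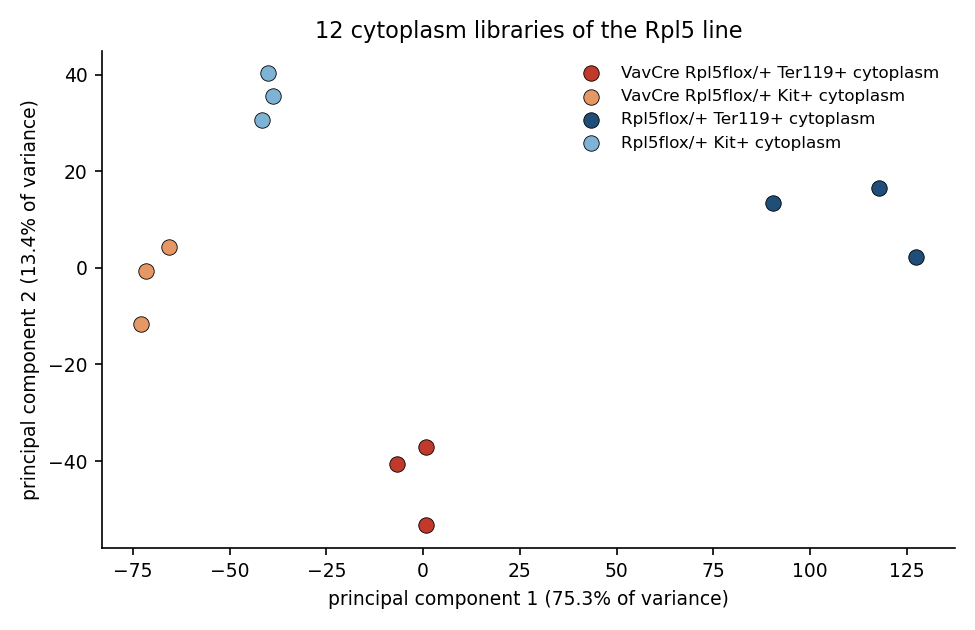
Principal components of the deposited log2 values of the 11281 genes tested; each point is 1 of the 12 cytoplasm libraries, 3 to a group. Component 1 (75.3% of the variance) places the labelled VavCre Ter119+ libraries between -6.7 and 0.8, between the Kit+ libraries of both genotypes (-72.9 to -38.8) and the control Ter119+ libraries (90.5 to 127.4).

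For most genes the step was smaller in size in VavCre than in control cells. The control step was called for 8272 genes (73.3% of those tested), and the VavCre step for 2873 (25.5%). The interaction was called for 5361 genes (47.5%) by limma with Benjamini-Hochberg adjustment, 2863 higher (25.4%) and 2498 lower (22.1%). Higher means that a gene rose more or fell less over the step in VavCre cells. Among the called genes the step was smaller in size in VavCre for 5186 (96.7%), against 85.7% of all genes tested. The VavCre difference was the larger one in Ter119+ cells for 5114 of the called genes (95.4%). That share was not computed over all genes tested, so it is no trait of the called genes alone. VavCre and control differed for 8063 genes in Ter119+ cells (71.5%, with 40.4% higher and 31.1% lower) and for 2673 in Kit+ cells (23.7%, with 13.2% higher and 10.5% lower). All 9 VavCre steps that 3 and 3 libraries can form lay above all 9 control steps for 2530 genes (22.4%), and below them for 2189 (19.4%). Without control Ter119+ replicate 3 the interaction was called for 6093 genes.

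The size of the shortfall was read against an outside measure, the step in Rps19flox/+ control livers, whose 6 libraries do not enter the interaction. That step was called for 64.6% of 10772 genes, 30.2% higher and 34.5% lower. Genes that rose over that step (3229) had a median step of 0.46 in VavCre and 1.40 in control cells, and 69.9% of them were lower by the interaction while 0.712% were higher. Among the 835 that rose at least 4-fold there, the medians were 1.74 in VavCre and 3.20 in control cells, with 83.4% lower. Genes that fell in Rps19flox/+ controls (3707) had medians of -0.33 in VavCre and -1.17 in control cells, and 66.9% were higher. Among the 275 that fell at least 4-fold, the medians were -0.61 in VavCre and -2.41 in control cells, and 95.3% were higher. Of the 3768 genes without a call in Rps19flox/+ controls, 8.07% were higher and 5.94% lower, with a median of 0.03. Across 10704 genes, which are not independent replicates, the slope on the Rps19flox/+ step was 0.50 in VavCre and 1.09 in control cells.

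**Figure D2:**
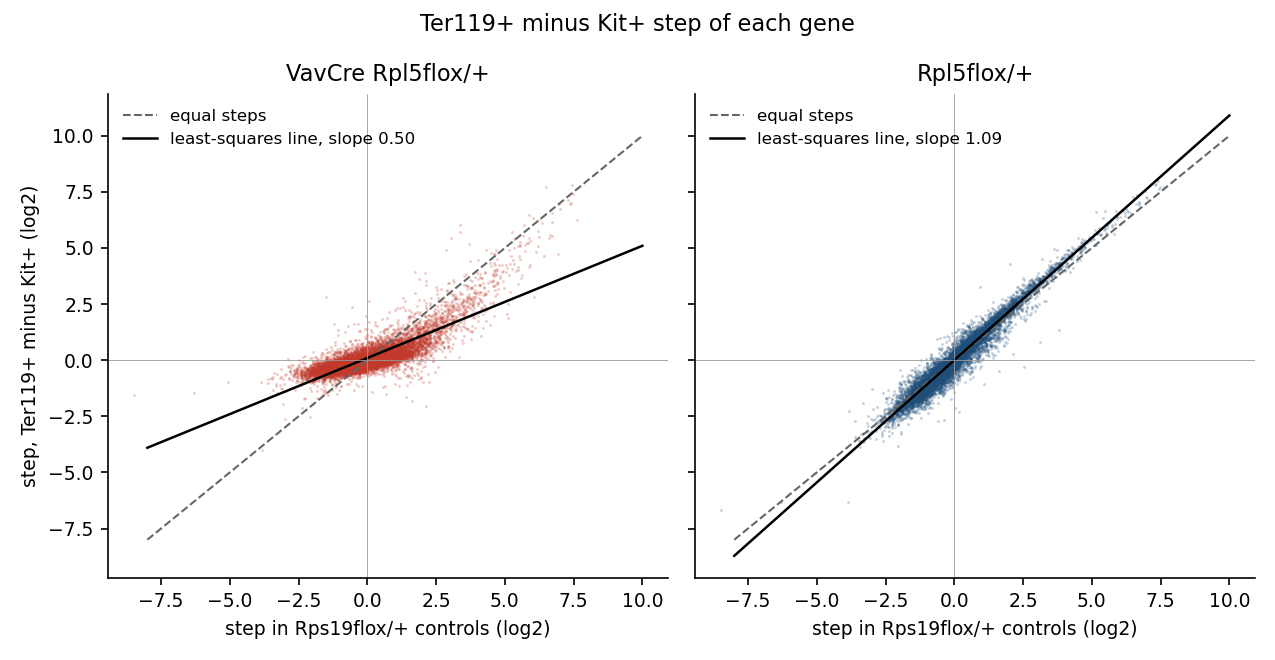
Step of each gene (Ter119+ minus Kit+, log2) in VavCre Rpl5flox/+ (left) and Rpl5flox/+ (right) against the step in Rps19flox/+ control livers; each dot is 1 of 10704 genes, the dashed line marks equal steps and the solid line is the least-squares line. The slope is 0.50 on the left and 1.09 on the right, so that genes lie flatter than the dashed line on the left.

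The share of globin reads bears on the scale of these values. With libraries scaled by their non-globin reads in place of the authors' size factors, the median interaction of all genes was 0.79 in place of 0.11, and 5824 genes were higher (51.6%) and 699 lower (6.2%), so that 89.3% of calls were higher in place of 53.4%. Of the 5361 calls, 3561 were kept, all in the same direction. Among genes that rose in Rps19flox/+ controls, 21.4% were then lower and 8.24% higher (median -0.12), and of those that rose at least 4-fold, 52.5% were lower. Among genes that fell there, 96.5% were higher (median 1.56). Among those without a call there, 49.6% were higher and 0.159% lower (median 0.74). Gene groups are therefore also given relative to the median of all genes, and with their counts under both scalings. Those counts stand beside 25.4% of all genes higher and 22.1% lower with the authors' scaling. With non-globin scaling the shares of all genes were 51.6% and 6.2%.

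**Figure D3:**
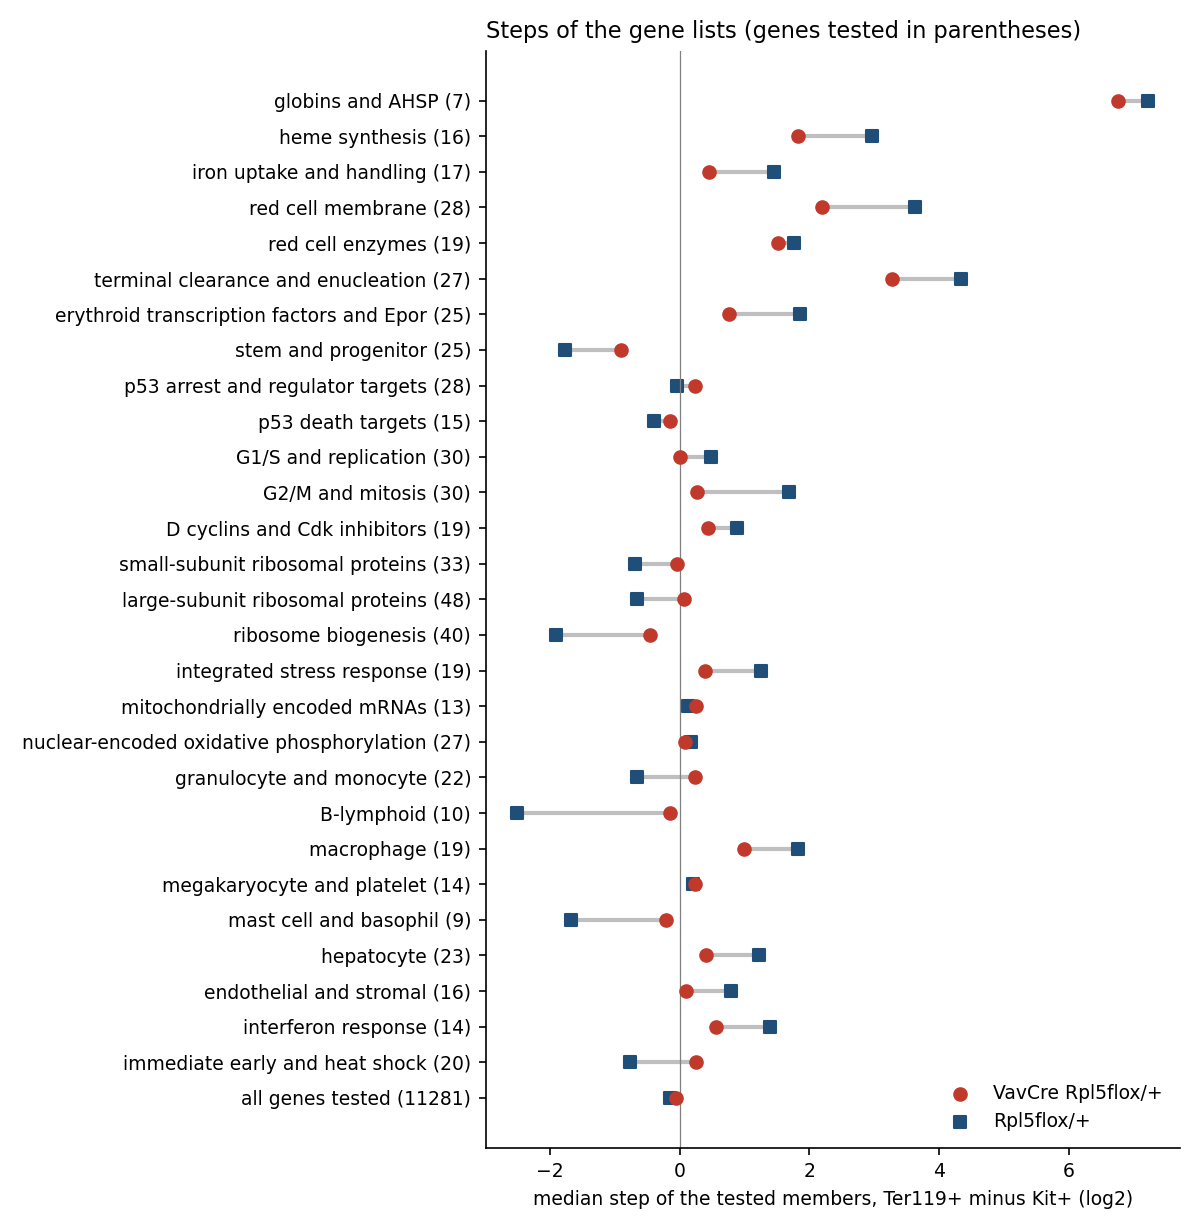
Median step (Ter119+ minus Kit+, log2, authors' scaling) of the tested members of each gene list in VavCre Rpl5flox/+ (circles) and Rpl5flox/+ (squares), with the number of genes tested in parentheses. Circles lie nearer to 0 than squares for the red cell membrane (2.19 and 3.62), G2/M (0.27 and 1.69) and ribosome biogenesis (-0.46 and -1.90) lists, and both lie far right for globins (6.75 and 7.22).

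Erythroid transcription factors and the erythropoietin receptor pathway rose less. Of 25 genes tested, 19 were lower by the interaction and 2 higher, with a median of -1.21 (-1.31 relative to all genes, and -1.15 relative to all genes with non-globin scaling, where 9 were lower and 5 higher). Gata1, the factor that starts the erythroid programme, had 3736, 3465 and 4149 in labelled VavCre Ter119+ and 2853, 2559.5 and 3423 in VavCre Kit+ libraries, against 10688, 12368 and 9841 in control Ter119+ and 3317, 3007 and 3479.5 in control Kit+ libraries. The Kit+ libraries of the 2 genotypes overlapped, while the Ter119+ libraries were far apart (interaction -1.37 ± 0.18, adjusted p = 7.09e-05). The VavCre step of Gata1 missed the threshold (0.37, adjusted p = 0.0507). Klf1, which switches on globin and membrane genes, had 4372, 4021 and 4568 in labelled VavCre Ter119+ and 1579, 1432 and 2241 in VavCre Kit+ libraries, against 21171, 22997 and 15806 in control Ter119+ and 3485, 3215 and 3968 in control Kit+ libraries. It was lower in both VavCre cell types and more so in Ter119+ (-2.19 and -1.04), with an interaction of -1.15 (adjusted p = 0.00153). Tal1, a partner of Gata1 in the same complex, had an interaction of -1.70 ± 0.23 (adjusted p = 7.96e-05), and so did its bridging partner Lmo2 (-1.65, adjusted p = 5.26e-05) and Klf3 (-1.72, adjusted p = 3.95e-05), which Klf1 induces. Socs3, a feedback inhibitor of cytokine receptors, averaged 139.6 in labelled VavCre Ter119+ against 785 in control Ter119+ libraries (interaction -2.32). The 2 higher members were Stat5a (2.07) and Stat5b (1.11), transducers of the receptor's signal. Stat5a averaged 421 ± 25.9 in labelled VavCre Ter119+ against 83.1 ± 19.4 in control Ter119+ libraries (SD, n = 3 each). With non-globin scaling the interactions of Gata1 (-0.56, adjusted p = 0.052) and Klf1 (-0.33, adjusted p = 0.278) were no longer called, and that of Tal1 was (-0.88, adjusted p = 0.00431).

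Genes of the red cell membrane and its skeleton showed the same shortfall, in 24 of 28 members tested, with none higher. Their median interaction was -1.35 (-1.46 relative to all genes, -1.32 with non-globin scaling, where 13 were lower and 1 higher). Gypc, the glycophorin that ties the skeleton to the membrane, had 3572, 3862 and 4628 in labelled VavCre Ter119+ and 1420.4, 1411 and 1522 in VavCre Kit+ libraries, against 21279, 25448 and 18309 in control Ter119+ and 1823, 1928 and 1784 in control Kit+ libraries. Its step was 1.45 in VavCre and 3.53 in control cells (interaction -2.08 ± 0.18, adjusted p = 5.55e-06). Icam4, a blood group adhesion protein, had 1323, 1124 and 1139.6 in labelled VavCre Ter119+ and 551, 578 and 691 in VavCre Kit+ libraries, against 7382, 8472 and 6333 in control Ter119+ and 1162, 1177 and 981 in control Kit+ libraries. The VavCre libraries were lower in both cell types, and the gap was wider in Ter119+ (interaction -1.75 ± 0.19, adjusted p = 1.6e-05). Cd47, the signal that keeps macrophages from eating a cell, averaged 4281 in VavCre and 4089.5 in control Kit+ libraries, with no call there (adjusted p = 0.796), and was lower in Ter119+ cells (interaction -1.68). Mpp1 had an interaction of -2.37 but overlaps Dkc1.

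Among the 4 membrane genes without a call was that of band 3, the anion exchanger of red cells. Slc4a1, which encodes it, had 67779, 86206 and 61081 in labelled VavCre Ter119+ and 788, 650.5 and 989 in VavCre Kit+ libraries, against 661225, 777566 and 364399 in control Ter119+ and 6398, 6992 and 6622 in control Kit+ libraries. It was lower with VavCre in both cell types (-3.01 in Ter119+ and -3.04 in Kit+, log2), and its steps were 6.45 in VavCre and 6.42 in control cells (interaction 0.03 ± 0.34, adjusted p = 0.955, but 0.85 with non-globin scaling, adjusted p = 0.0148). Sptb (-0.86), which overlaps Plekhg3, Bcam (-0.27) and Aqp9 (-0.76) were the other 3.

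The sequence before the start of Icam4 is shown because GATA sites are a well known feature of erythroid promoters. The window runs from 250 bases before to 50 after the start (RefSeq, GRCm38.p6, plus strand, chr9:21029182-21029481), and its capitals mark the 1 match to AGATAA, on the reverse strand.

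Icam4: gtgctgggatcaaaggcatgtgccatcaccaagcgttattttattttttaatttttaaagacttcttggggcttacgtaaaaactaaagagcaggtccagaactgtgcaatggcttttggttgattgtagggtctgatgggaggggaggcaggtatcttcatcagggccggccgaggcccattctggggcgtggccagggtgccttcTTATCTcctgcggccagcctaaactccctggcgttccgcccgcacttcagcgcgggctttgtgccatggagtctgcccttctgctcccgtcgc

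AGATAA was searched on both strands, and windows were available for 9051 of the genes tested. Of the red cell membrane windows 24% held it (6 of 25), against 6.65% of the 11565 windows of all genes tested and 11.2% of all 32851 windows. Among genes lower by the interaction the share was 6.65%, and among those higher 6.11%. A match in these letters is a description and not a bound site.

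Globins rose steeply over the step in both genotypes (medians 6.75 in VavCre and 7.22 in control cells). None of the 7 genes tested was called by the interaction (median -0.31, or -0.42 and -0.29 relative to all genes with the authors' and non-globin scaling). Without control Ter119+ replicate 3, 1 of the 7 was lower, and the interaction of Hbb-bt was -1.08 in place of -0.73. The libraries spread widely. Hba-a1, an adult alpha globin, had 1436949.6, 1795762 and 1061731 in labelled VavCre Ter119+ and 21827, 18421 and 20013 in VavCre Kit+ libraries, against 6095927, 9568907 and 3978695 in control Ter119+ and 64528, 70229 and 53253 in control Kit+ libraries. It was lower in both VavCre cell types (-2.13 in Ter119+, -1.63 in Kit+), and the interaction was -0.50 ± 0.43 (adjusted p = 0.349). The embryonic globin Hbb-y went the other way in both cell types. It had 128503, 164234 and 39287 in labelled VavCre Ter119+ and 384, 759 and 219 in VavCre Kit+ libraries, against 32401, 20056 and 14951 in control Ter119+ and 103, 113 and 66 in control Kit+ libraries, with steps of 7.82 in VavCre and 7.65 in control cells. Hba-x, the embryonic alpha-like globin, was also higher in both (1.94 in Ter119+ cells) with no interaction call (0.44, adjusted p = 0.561).

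The calls for heme synthesis and iron handling depended on the scaling. Among all genes, 22.1% were lower and 25.4% higher with the authors' scaling, and 6.2% and 51.6% with non-globin scaling. Of 16 heme genes tested, 11 were lower and 1 higher by the interaction, with a median of -0.75 that became 0.07 with non-globin scaling, where 1 was lower and 3 were higher (-0.86 and -0.72 relative to all genes). Cpox, which makes protoporphyrinogen, averaged 19357 in labelled VavCre Ter119+ and 6506 in VavCre Kit+, against 90312 in control Ter119+ and 9683 in control Kit+ libraries (interaction -1.63 ± 0.22, adjusted p = 7.69e-05). Alas2, the first and rate-limiting enzyme, had steps of 7.13 in VavCre and 7.80 in control cells and no call (-0.67, adjusted p = 0.158), except without control Ter119+ replicate 3, where the value was -1.07; it overlaps Apex2. The 1 higher gene was Flvcr1 (1.33), a heme exporter. Of 17 iron genes tested, 9 were lower and 1 higher, with a median of -0.67 that became 0.15 with non-globin scaling, where 2 were lower and 4 higher (-0.78 and -0.64 relative to all genes). Tfrc, the transferrin receptor, averaged 10819 ± 2749.5 in labelled VavCre Ter119+ and 3659 ± 810.3 in VavCre Kit+, against 48752 ± 2239.9 in control Ter119+ and 7473 ± 994 in control Kit+ libraries (SD, n = 3 each; interaction -1.15, adjusted p = 0.00285). With non-globin scaling its interaction was not called (-0.34, adjusted p = 0.398). Ncoa4, the receptor that delivers ferritin for breakdown, had an interaction of -1.66 (adjusted p = 0.00191). Aco1, an iron sensor that binds transferrin receptor mRNA, was the 1 higher gene. It was lower in VavCre Kit+ cells (-0.39) and higher in the labelled VavCre Ter119+ libraries (0.84).

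Genes of enucleation and organelle clearance were lower in 16 of 27 members tested and higher in 3 (median -1.04, -1.14 relative to all genes and -1.01 with non-globin scaling, where 6 were lower and 5 higher). The lower ones were 22 without control Ter119+ replicate 3 and 12 without labelled VavCre Ter119+ replicate 1. Among all genes, 22.1% were lower and 25.4% higher, or 6.2% and 51.6% with non-globin scaling. Xpo7, a nuclear exporter that rises strongly in late erythroblasts, had 13309, 18296 and 11119.6 in labelled VavCre Ter119+ and 468, 655 and 440.2 in VavCre Kit+ libraries, against 109618, 158953 and 49531 in control Ter119+ and 464, 575 and 444 in control Kit+ libraries. The Kit+ libraries overlapped, and the labelled VavCre Ter119+ libraries lay below every control Ter119+ library (interaction -2.83 ± 0.45, adjusted p = 0.000253); the gene overlaps Dok2. Marchf8 (-1.38), an E3 ligase that removes the transferrin receptor, and Fbxo7 (-1.22), which takes part in mitophagy, were lower too, but not with non-globin scaling (-0.55, adjusted p = 0.0523, and -0.40, adjusted p = 0.1). The 3 higher genes were Rundc3a (2.22), Hdac2 (0.79) and Fundc1 (0.71). Of 19 red cell enzymes, 8 were lower and 3 higher (median -0.56, 0.25 with non-globin scaling, where 3 were lower and 4 higher, -0.67 and -0.54 relative to all genes), and without control Ter119+ replicate 3 the lower ones were 13. The antioxidant enzymes Gpx1 (-1.66) and Cat (-1.53) were among the lower, and the higher were the glycolytic Aldoa (1.25) and Pklr (0.76), which overlaps Hcn3, and the adenylate kinase Ak1 (1.48).

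Of 25 stem and progenitor genes tested, 16 fell over the VavCre step and 24 over the control step. Of all 11281 genes tested, 1128 fell over the VavCre step and 4515 over the control step. By the interaction 13 were higher and none lower, with a median of 0.92 (0.81 relative to all genes and 0.89 with non-globin scaling, where 19 were higher). Kit, the stem cell factor receptor used for the sort, had 759, 721 and 852 in labelled VavCre Ter119+ and 1480.2, 1440.0 and 1719 in VavCre Kit+ libraries, against 27, 25.7 and 83.4 in control Ter119+ and 1625, 1600.0 and 1971 in control Kit+ libraries. The Kit+ libraries of both genotypes overlapped, while each labelled VavCre Ter119+ library lay above every control Ter119+ library, so that the step was -0.98 in VavCre and -5.01 in control cells (interaction 4.03 ± 0.37, adjusted p = 7.33e-06). Myb, a factor that keeps progenitors dividing, had 1229, 1144 and 1098 in labelled VavCre Ter119+ and 2173, 2149 and 1879 in VavCre Kit+ libraries, against 101, 151 and 198 in control Ter119+ and 1587, 1636 and 1830.1 in control Kit+ libraries. Its interaction was 2.58 ± 0.24 (adjusted p = 8.68e-06). Gata2, which Gata1 displaces as cells become erythroid, had 264, 264 and 212 in labelled VavCre Ter119+ and 339, 438 and 278 in VavCre Kit+ libraries, against 27, 46.6 and 46.2 in control Ter119+ and 161, 146 and 225 in control Kit+ libraries. It was higher in both VavCre cell types and more so in Ter119+ (2.29 and 0.93). Myc (1.89), a growth regulator, and Igf2bp1 (1.61), an RNA-binding protein of fetal cells, were higher by the interaction too. The summed Kit+ progenitor markers given above (Kit, Myb, Gata2, Cd34 and Flt3) include Kit, Myb and Gata2, so that sum repeats these genes. The part that Kit+ cells among the Ter119+ cells have in these results was not tested.

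**Figure D4:**
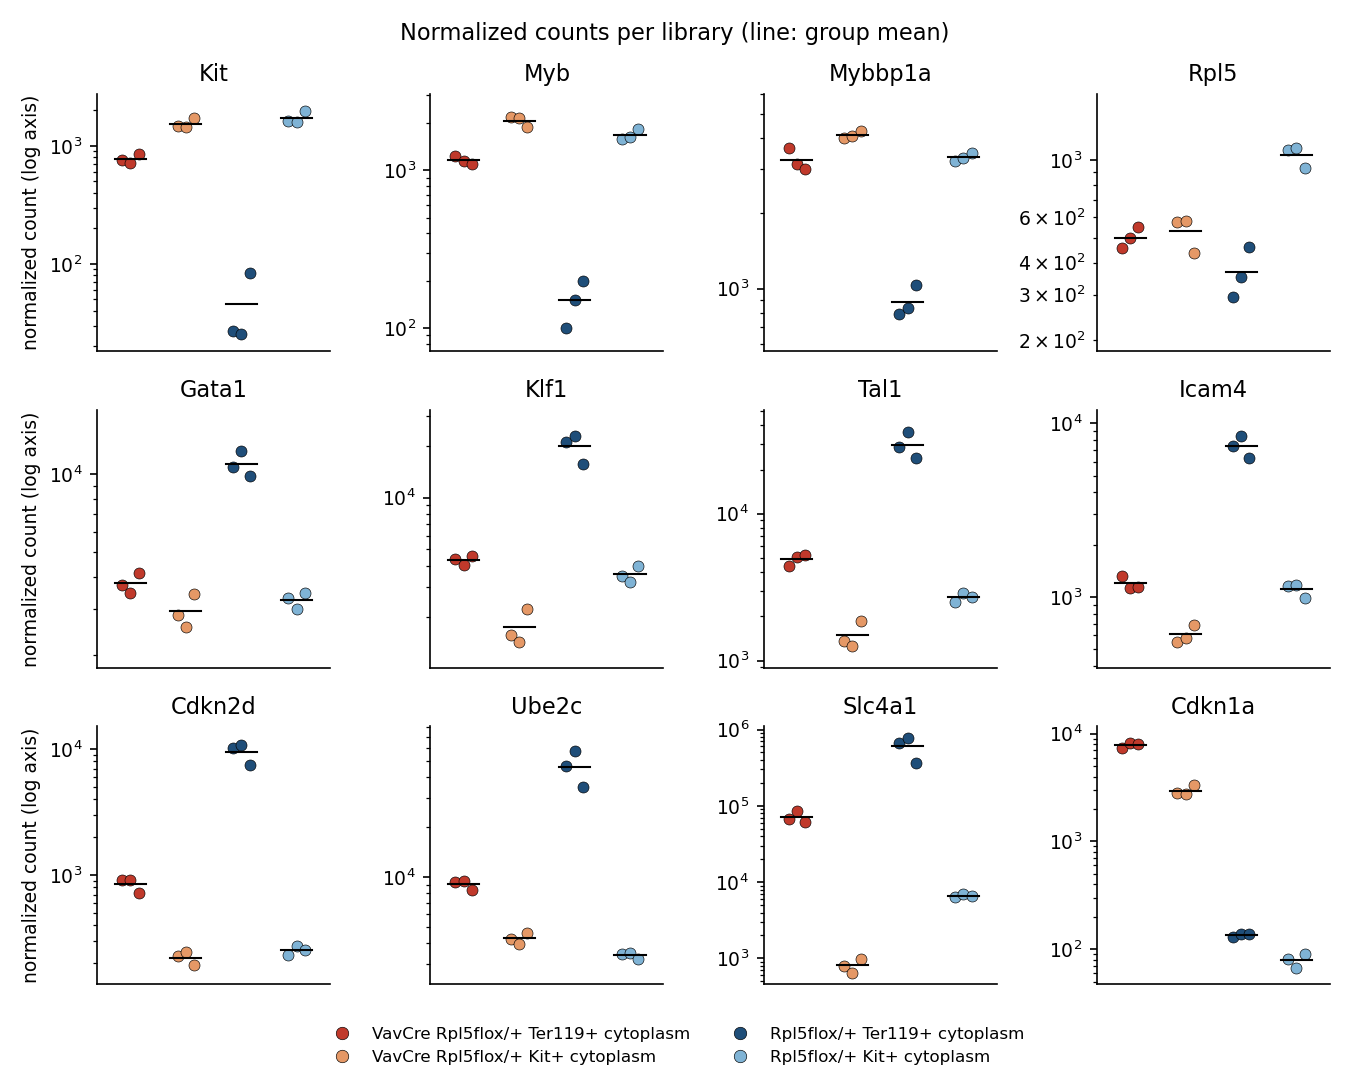
Normalized count (log axis) of 12 genes in each of the 12 libraries, from left to right VavCre Rpl5flox/+ Ter119+, VavCre Rpl5flox/+ Kit+, Rpl5flox/+ Ter119+ and Rpl5flox/+ Kit+; points are libraries and lines are group means. Kit, Myb and Mybbp1a drop less between Kit+ and Ter119+ in VavCre than in control cells, Gata1, Tal1, Cdkn2d and Ube2c rise less in VavCre than in control cells, and Slc4a1 is lower with VavCre in both cell types (-3.01 and -3.04).

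Mitotic genes rose less over the VavCre step in nearly the whole list. Of 30 G2/M genes tested, 29 were lower by the interaction and none higher, with a median of -1.46 (-1.57 relative to all genes and -1.44 with non-globin scaling, where 17 were lower and none higher). Their median step was 0.27 in VavCre and 1.69 in control cells. Ube2c, the ubiquitin-conjugating enzyme of the anaphase-promoting complex, had 9404, 9433 and 8387 in labelled VavCre Ter119+ and 4246, 3955 and 4606 in VavCre Kit+ libraries, against 46462, 57223 and 34699 in control Ter119+ and 3427, 3494 and 3201 in control Kit+ libraries. In Kit+ cells its difference missed the threshold (0.34, adjusted p = 0.123), and in Ter119+ cells the labelled VavCre libraries were lower (-2.32), which gave an interaction of -2.65 ± 0.21 (adjusted p = 3.56e-06). Ccnb2, a mitotic cyclin, had 1571, 1598 and 1586 in labelled VavCre Ter119+ and 1024, 1109 and 1196 in VavCre Kit+ libraries, against 9129.6, 9155 and 7728 in control Ter119+ and 1981, 1758 and 1892 in control Kit+ libraries. It was lower in both cell types and rose by 0.51 in VavCre and 2.20 in control cells. Cdk1, the mitotic kinase, had no called step in VavCre cells (-0.16) and one of 1.42 in control cells (interaction -1.58, adjusted p = 8.93e-06). Cenpe (-0.74) was the 1 gene of the list without a call. Genes of G1/S and replication were lower in 16 of 30 and higher in none (median -0.50, 0.31 with non-globin scaling, where 1 was lower and 6 were higher, -0.60 and -0.48 relative to all genes). The lower ones were 12 without control Ter119+ replicate 1 and 22 without control Ter119+ replicate 2. Among all genes, 22.1% were lower, or 6.2% with non-globin scaling, where 51.6% were higher. Rrm2, a subunit of ribonucleotide reductase, had -1.61, and Pcna, the replication clamp, had -0.79 with the authors' and 0.03 with non-globin scaling.

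The starts of Ube2c and Ccnb2 are shown because CCAAT boxes and the cell cycle homology element TTTGAA are known features of mitotic promoters. Both are windows of 300 bases from RefSeq (GRCm38.p6), Ube2c from the plus strand (chr2:164769679-164769978) and Ccnb2 from the minus strand (chr9:70421505-70421804). Capitals mark CCAAT and TTTGAA on either strand, and CCAATTGG holds a CCAAT match on each strand.

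Ube2c: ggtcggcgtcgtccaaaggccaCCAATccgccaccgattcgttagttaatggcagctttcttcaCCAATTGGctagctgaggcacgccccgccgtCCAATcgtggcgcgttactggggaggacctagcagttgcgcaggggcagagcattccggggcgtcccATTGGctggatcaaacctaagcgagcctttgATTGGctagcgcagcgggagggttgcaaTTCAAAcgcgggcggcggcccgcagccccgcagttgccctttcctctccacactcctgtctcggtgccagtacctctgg
Ccnb2: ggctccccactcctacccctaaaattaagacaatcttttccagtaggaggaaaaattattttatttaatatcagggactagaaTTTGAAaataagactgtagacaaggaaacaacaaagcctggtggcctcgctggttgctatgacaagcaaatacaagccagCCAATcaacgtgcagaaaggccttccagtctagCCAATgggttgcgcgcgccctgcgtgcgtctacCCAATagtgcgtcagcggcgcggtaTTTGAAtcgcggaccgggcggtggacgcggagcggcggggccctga

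Of the G2/M windows, 84.6% held CCAAT (22 of 26) and 73.1% held TTTGAA (19 of 26). The shares were 38.3% and 12.4% over the windows of all genes tested, and 37.4% and 17.9% over all windows. Among all genes lower by the interaction they were 42.2% and 14.6%, and among those higher 35.9% and 11.7%.

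Of 19 D cyclins, Cdk inhibitors and E2f genes tested, 10 were lower and 4 higher (beside 22.1% and 25.4% of all genes, median -0.66, 0.16 with non-globin scaling, where 4 were lower and 6 higher, -0.77 and -0.63 relative to all genes). Cdkn2d, which encodes the Cdk4 and Cdk6 inhibitor p19 and rises in maturing erythroblasts, had 921, 909 and 728 in labelled VavCre Ter119+ and 228, 245 and 193 in VavCre Kit+ libraries, against 10147, 10687 and 7525 in control Ter119+ and 234, 275 and 253 in control Kit+ libraries. The Kit+ groups overlapped, and the step was 1.87 in VavCre and 5.12 in control cells (interaction -3.25 ± 0.21, adjusted p = 8.65e-07). E2f8, a repressor of the E2F family, was lower too (-2.10 ± 0.18, adjusted p = 5.12e-06). Ccnd2, a D cyclin of progenitors, went the other way, with 1368, 1538 and 1754 in labelled VavCre Ter119+ and 1706, 1742 and 1654 in VavCre Kit+ libraries, against 101, 112 and 204 in control Ter119+ and 684, 851 and 733 in control Kit+ libraries. It had no called step in VavCre cells (-0.14) and one of -2.38 in control cells (interaction 2.24 ± 0.27, adjusted p = 3.78e-05). The other higher members were the kinases Cdk6 (2.85) and Cdk4 (1.14), which overlaps Tspan31, and the inhibitor Cdkn1a (0.74).

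Genes of ribosome production fell less over the VavCre step than over the control step. Of 40 ribosome biogenesis genes tested, 37 were higher by the interaction and 1 lower, with a median of 1.40 (1.29 relative to all genes and 1.40 with non-globin scaling, where 39 were higher). Their median step was -0.46 in VavCre and -1.90 in control cells. Nop16, a nucleolar assembly factor of the large subunit, had 1174, 1102 and 1066 in labelled VavCre Ter119+ and 1746, 1679 and 1731 in VavCre Kit+ libraries, against 205, 267 and 313 in control Ter119+ and 1279, 1517 and 1478 in control Kit+ libraries. The fall was 0.62 in VavCre and 2.40 in control cells (interaction 1.78 ± 0.19, adjusted p = 1.6e-05). Mybbp1a, a nucleolar regulator of ribosomal RNA synthesis that overlaps Spns2, had 3648, 3152 and 2997 in labelled VavCre Ter119+ and 4001, 4061 and 4262 in VavCre Kit+ libraries, against 793, 834 and 1029 in control Ter119+ and 3230.5, 3312 and 3491 in control Kit+ libraries (interaction 1.57 ± 0.16, adjusted p = 1.28e-05). Ubtf (-0.61), an RNA polymerase I factor, was the 1 lower gene, and its value was 0.21 with non-globin scaling, where none of the list was lower. Of the ribosomal protein genes without Rps19 and Rpl5, 29 of 33 small-subunit and 41 of 48 large-subunit genes were higher and none lower (medians 0.67 and 0.66, and 0.56 relative to all genes for each list). Their median steps were -0.04 and 0.07 in VavCre and -0.69 and -0.66 in control cells. With non-globin scaling 32 small-subunit and 48 large-subunit genes were higher and none lower, beside 51.6% of all genes higher. Relative to all genes, their medians under that scaling were 0.70 and 0.69. Rps20 averaged 23109 in labelled VavCre Ter119+ and 25872 in VavCre Kit+, against 8313 in control Ter119+ and 19008 in control Kit+ libraries (interaction 1.03 ± 0.19, adjusted p = 0.000653). Rpl11, which joins Rpl5 in the 5S particle, had 0.67 (adjusted p = 0.00318), and Rps19 had 0.69 (adjusted p = 0.00562).

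The start of Mybbp1a is shown for CACGTG, the E-box that Myc binds. The window is from RefSeq (GRCm38.p6, plus strand, chr11:72441077-72441376), and its capitals mark the 1 match.

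Mybbp1a: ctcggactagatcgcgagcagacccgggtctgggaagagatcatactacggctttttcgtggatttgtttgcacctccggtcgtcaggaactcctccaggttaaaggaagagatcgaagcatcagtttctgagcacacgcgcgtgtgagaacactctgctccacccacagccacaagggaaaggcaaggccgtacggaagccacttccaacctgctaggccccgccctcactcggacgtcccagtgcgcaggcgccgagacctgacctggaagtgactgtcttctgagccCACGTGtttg

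CACGTG, which reads the same on both strands, was in 23.8% of the windows of ribosome biogenesis genes (10 of 42). It was in 10.1% of the windows of all genes tested, 13% of those of genes higher by the interaction, 8.62% of those of genes lower, and 7.15% of all windows. No match was in the window of Nop16.

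Over the step, targets of p53 were called in both directions. Of 28 arrest and regulator genes tested, 10 were higher and 7 lower by the interaction (median 0.21, 0.10 relative to all genes). Of all genes tested, 25.4% were higher and 22.1% lower. With non-globin scaling 13 of the 28 were higher and 2 lower, beside 51.6% and 6.2% of all genes. With VavCre, 20 of the 28 were higher in each cell type. The shares of all genes there were 40.4% in Ter119+ and 13.2% in Kit+ cells. Cdkn1a, the p21 gene, had 7400.4, 8263 and 8091 in labelled VavCre Ter119+ and 2830.4, 2753 and 3315 in VavCre Kit+ libraries, against 129.8, 139 and 137 in control Ter119+ and 81.1, 66.8 and 91 in control Kit+ libraries. It was far higher with VavCre in both cell types, and it rose over the step by 1.42 in VavCre and 0.68 in control cells (interaction 0.74 ± 0.17, adjusted p = 0.00285). Trp53 mRNA rose over the VavCre step and fell over the control step (0.40 and -0.67, interaction 1.07, adjusted p = 0.000273). Aen, a p53-induced nuclease, was higher by the interaction (1.40), and Ppm1d, the phosphatase that shuts p53 off, was lower (-1.64). Mdm2 missed the threshold (-0.46, adjusted p = 0.0574). Of 15 death genes tested, 5 were higher and 2 lower, beside 25.4% and 22.1% of all genes (median 0.47, 0.37 relative to all genes). With non-globin scaling 10 were higher and 1 lower, beside 51.6% and 6.2% of all genes. Bbc3, the killer protein Puma, averaged 640.5 in labelled VavCre Ter119+ and 398 in VavCre Kit+, against 949 in control Ter119+ and 143 in control Kit+ libraries. Its VavCre difference was called in Kit+ cells (1.42, adjusted p = 0.00106) and not in Ter119+ cells (-0.51, adjusted p = 0.0691), and the interaction was -1.93 ± 0.34 (adjusted p = 0.000488). Bid, which links death receptors to mitochondria, was higher (1.67, adjusted p = 0.000122). The other lower death gene was Pidd1 (-0.65, and 0.14 with non-globin scaling). The list had 1 lower gene in place of 2 without VavCre Kit+ replicate 1, control Ter119+ replicate 1, control Kit+ replicate 1 or control Kit+ replicate 2.

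Of 19 integrated stress response genes tested, 12 were lower and 3 higher (median -1.20, -1.30 relative to all genes and -1.41 with non-globin scaling, where 5 were lower and 5 higher). Slc7a5, a transporter of large amino acids, averaged 2399 in labelled VavCre Ter119+ and 1822 in VavCre Kit+, against 20812 in control Ter119+ and 2225 in control Kit+ libraries (interaction -2.75 ± 0.30, adjusted p = 1.75e-05). Atf4, the factor that runs this response, had no called VavCre step (-0.18) and rose in control cells (1.26, interaction -1.44, adjusted p = 5.43e-05). With non-globin scaling its interaction was not called (-0.62, adjusted p = 0.0568). The 3 higher genes were the serine synthesis enzymes Phgdh (1.48) and Psat1 (1.34) and the factor Cebpb (0.75). None of 13 mitochondrially encoded mRNAs was called (median -0.04), and with non-globin scaling 4 were higher (0.78). Of 27 nuclear genes of oxidative phosphorylation, 3 were higher and 2 lower (median -0.06), and with non-globin scaling 22 were higher and none lower (0.75). Relative to all genes the medians under that scaling were -0.01 and -0.04. The shares of all genes were 25.4% higher and 22.1% lower with the authors' scaling, and 51.6% and 6.2% with non-globin scaling.

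The largest interactions that met the naming rule were of diverse genes. Tmtc1 (4.26), Tubb3 (4.02), Spry1 (3.03) and Nsmf had their highest mean in the labelled VavCre Ter119+ libraries. Vgf averaged 181 there and 5.28 in control Ter119+ cells and had no reads in the Kit+ libraries of either genotype, so that it was at least 192-fold higher in labelled VavCre Ter119+ than in VavCre Kit+ libraries over a floor of 3 reads per library. Exosc6, a subunit of the RNA exosome, had 267, 228 and 325 in labelled VavCre Ter119+ and 961, 631 and 782 in VavCre Kit+ libraries, no reads in control Ter119+, and 552, 630.1 and 575 in control Kit+ libraries. Over the same floor it was at least 101-fold higher in the labelled VavCre than in the control Ter119+ libraries. Among the lowest interactions were Tinagl1 (-3.33), Zfp185 (-3.10), Fzd5 (-2.94), Pepd (-2.91), Cacna1g (-2.81) and Sp2 (-2.76), all with a control step above 3.5. Ptp4a3, a phosphatase, had 10449, 14895 and 9706 in labelled VavCre Ter119+ and 2587, 2802 and 2807 in VavCre Kit+ libraries, against 49796, 78437 and 29966 in control Ter119+ and 957, 1346 and 1160.4 in control Kit+ libraries. It was higher with VavCre in Kit+ cells and lower in Ter119+ cells (interaction -3.33 ± 0.37, adjusted p = 2.23e-05).

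Markers of other blood lineages moved with the genotype as well. Of 22 granulocyte and monocyte genes tested, 10 were higher by the interaction and none lower (median 0.86, 0.76 relative to all genes). The higher ones were 6 without VavCre Kit+ replicate 1 or without control Ter119+ replicate 1. With non-globin scaling 20 were higher, beside 51.6% of all genes. Mpo, the myeloperoxidase of granulocyte precursors, had 30943, 31632 and 15665 in labelled VavCre Ter119+ and 29939, 42585 and 24913 in VavCre Kit+ libraries, against 2449, 2417 and 4167 in control Ter119+ and 11541, 12449.6 and 12986 in control Kit+ libraries. It was higher with VavCre in both cell types and had no called VavCre step (-0.35, adjusted p = 0.38). The 7 summed markers of this lineage were 30142 to 61740.5 in labelled VavCre Ter119+ and 42715 to 78509 in VavCre Kit+, against 5225 to 8819 in control Ter119+ and 19923 to 21883 in control Kit+ libraries. In the other line they were lower with VavCre in both cell types, at 1717 to 2839 in VavCre Rps19flox/+ Ter119+ and 3327 to 7058 in VavCre Rps19flox/+ Kit+, against 4446 to 6873 in Rps19flox/+ Ter119+ and 14605 to 18722 in Rps19flox/+ Kit+. B-lymphoid genes were higher by the interaction in all 10 tested (median 2.40, 2.29 relative to all genes and 2.22 with non-globin scaling, where 10 were higher too). This came through Kit+ cells, where all 10 were lower with VavCre. Igll1, a part of the pre-B receptor, averaged 34.3 in labelled VavCre Ter119+ and 43.4 in VavCre Kit+, against 20.2, 13.5 and 41 in control Ter119+ libraries and a mean of 303 in control Kit+ libraries. The 3 summed mast cell and basophil markers were 468 to 868 in labelled VavCre Ter119+ and 544 to 1246 in VavCre Kit+, against 48 to 112 in control Ter119+ and 373 to 413 in control Kit+ libraries.

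Cells outside the blood lineage were followed by the hepatocyte markers, which summed to 23585 to 37098 in labelled VavCre Ter119+ and 16741 to 30565 in VavCre Kit+, against 19923 to 31715 in control Ter119+ and 4361 to 14304 in control Kit+ libraries. The Ter119+ groups overlapped, and in Kit+ cells the VavCre libraries were higher. The macrophage markers summed to 822 to 1184 in labelled VavCre Ter119+ and 331 to 551 in VavCre Kit+, against 1026 to 2018 in control Ter119+ and 198 to 326 in control Kit+ libraries. Megakaryocyte markers were 596 to 833 in labelled VavCre Ter119+ and 487 to 602 in VavCre Kit+, against 719 to 1231 in control Ter119+ and 595 to 629 in control Kit+. Endothelial and stromal markers were 426 to 612 in labelled VavCre Ter119+ and 277 to 608 in VavCre Kit+, against 498 to 849.7 in control Ter119+ and 315 to 458 in control Kit+. The part of these cells in the interaction was not tested.

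**Figure D5:**
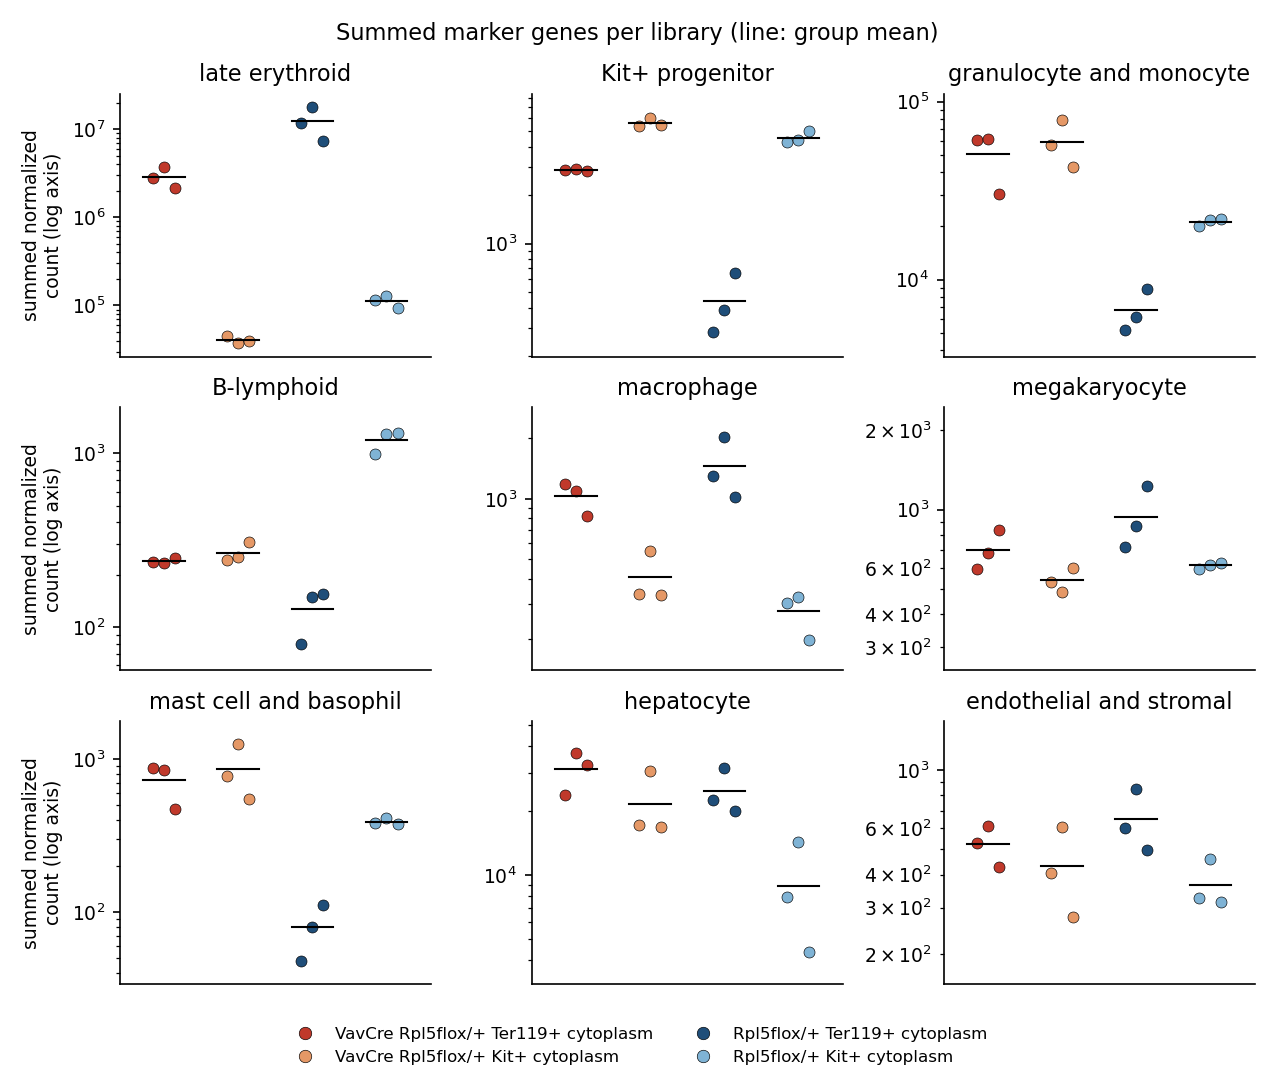
Summed normalized counts (log axis) of 9 sets of marker genes in each of the 12 libraries, in the order VavCre Rpl5flox/+ Ter119+, VavCre Rpl5flox/+ Kit+, Rpl5flox/+ Ter119+ and Rpl5flox/+ Kit+; points are libraries and lines are group means. The Kit+ progenitor, granulocyte and monocyte, and mast cell sets lie higher in labelled VavCre Ter119+ than in control Ter119+ libraries (2838 to 2905 against 281 to 656 for the first). The late erythroid set, most of whose counts are Hba-a1 and Hbb-bt, lies lower in labelled VavCre Ter119+ libraries.

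The same interaction in the Rps19 line was the most similar comparison, with its own controls. It was called for 1353 of 11018 genes (12.3%, 3.93% higher and 8.35% lower). The difference between the lines, the Rpl5 interaction minus the Rps19 interaction, was called for 1513 genes (13.7%), 837 higher (7.6%) and 676 lower (6.14%). With non-globin scaling 2392 were higher and 218 lower, so that 91.6% of calls were higher in place of 55.3%. Of lists with all called members in 1 direction, those with the most were G2/M (15 lower of 30), ribosome biogenesis (18 higher of 40), the red cell membrane (9 lower of 28) and large-subunit ribosomal proteins (12 higher of 48). Fewer members were called in 1 direction for terminal clearance and enucleation (4 lower of 27), G1/S (4 lower of 30) and small-subunit ribosomal proteins (2 higher of 33), among others. The small-subunit share was below the 7.6% of all genes that were higher. With counts this small, calls in 1 direction alone say little about a list. These list counts are with the authors' scaling alone. Cdkn2d had an interaction of -3.25 in the Rpl5 line and -0.56 in the Rps19 line (difference -2.69, adjusted p = 2.37e-05). Ccnb2 (difference -1.31, adjusted p = 0.000398), Gypc (-1.49, adjusted p = 0.00113) and Xpo7 (-2.45, adjusted p = 0.00828) differed too. For Kit (1.24, adjusted p = 0.312), Myb (0.72, adjusted p = 0.151) and Cdkn1a (0.12, adjusted p = 0.8) no difference between the lines was called. The count of differences between the lines rested on single libraries, and it was 2621 without control Ter119+ replicate 3 (Rpl5flox/+), 987 without labelled VavCre Rpl5flox/+ Ter119+ replicate 1, 927 without VavCre Rps19flox/+ Ter119+ replicate 1 and 979 without Rps19flox/+ Kit+ replicate 1.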

How the data were processed

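The authors deposited 1 table of log2 values, on a variance-stabilised scale as the values show, with 13449 genes and 45 libraries. The genome build was mm10, per the submitters' processing notes, the aligner or counter being not given in the sources used here. The lowest deposited log2 value stands for 0 reads, and undoing the scale gave whole reads for 100% of values (tolerance 1e-06), each divided by a size factor of the library. Normalized counts in the text are these reads over that factor.

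Genes whose normalized counts averaged 10 or more over the 12 libraries were fitted with limma 3.58.1 in R 4.3.3 (1 coefficient per group, eBayes with trend, two-sided) on the deposited log2 values, and p-values were adjusted by Benjamini-Hochberg over all genes tested, with a threshold of 0.05. The difference between lines came from a fit of all 24 cytoplasm libraries. No 2 replicates of a group were copies of each other. Each pool label covers 1 cytoplasm library, so no value within a batch exists. The gene lists and the genes in every case named were chosen with earlier results of these data known. The rule for named genes took 20 chosen genes, the 10 highest and 10 lowest interactions with a group mean of at least 100 and steps that did not overlap (without predicted genes, pseudogenes and genes that overlap another), and up to 4 genes per list by smallest adjusted p. Genes named because a count was 5 or fewer were chosen after their values were seen. Some genes chosen this way are not reported here. Promoters were shown because they hold a match. Positions and promoters are from RefSeq (GRCm38.p6), with 13226 symbols placed.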

Additional observations from a re-analysis of the deposited data

Results flagged for a closer look

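The interaction of cell type and genotype was called for 5361 genes, which is a difference of the step between the genotypes tested as such. The difference between the Rpl5 and the Rps19 line was called for 1513 genes.

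For 80 genes the VavCre difference was called in both cell types in opposite directions, 49 of them higher in Ter119+ cells and 31 lower. Of the named genes, Rpl5 (interaction 1.41) and Aco1 (1.23) were higher with VavCre in Ter119+ cells and lower in Kit+ cells. Ptp4a3 (-3.33), Mpp1 (-2.37) and Gtse1 (-1.85), a p53 regulator of G2, were lower with VavCre in Ter119+ cells and higher in Kit+ cells. Mpp1 overlaps Dkc1, and Rpl5 overlaps Dipk1a. Both effects were called in the same direction for 1242 higher and 983 lower genes. No group had 4 or more libraries, so no library was tested as standing apart.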

How the results depend on the processing

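The interaction was called for 4695 to 6093 genes over the fits without 1 library, 5050 with a minimum of 50, 5280 without a filter, 5305 and 5373 on log2(normalized count + 1) and + 10, 5323 after rescaling (47.6% higher), 5332 in the 24-library fit and 5127 by voom, which was chosen after seeing the data. Non-globin scaling, also chosen then, gave 4364 calls for the VavCre step and 2610 for the difference between lines. It changed the sign of Pcna (0.03), Cox6a1 (0.10), Ndufb7 (0.29) and Il1rl1 (0.11), and these genes were then no longer called. The VavCre step was called for 1950 to 3474 genes without 1 library, the Kit+ effect for 1358 to 3296 and the difference between lines for 927 to 2621. The Kit+ effect was at 1358 without VavCre Kit+ replicate 2, 1584 without VavCre Kit+ replicate 1, 1600 without control Kit+ replicate 1 and 1578 without control Kit+ replicate 3. Of 141 named genes, 111 kept their call and direction with non-globin scaling, 19 lost the call, 7 gained it and 4 lost it with a change of sign. The cause was not tested. Among lists, the higher mast cell genes ranged from 2 to 6 and the lower hepatocyte genes from 0 to 15 without 1 library, with 15 without control Kit+ replicate 2, and the lower macrophage genes from 0 to 7, with 7 without control Ter119+ replicate 3.

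With the replicate number as a replicate block the interaction was called for 5517 genes, and with the block within genotype for 5378. Deviations of same-numbered libraries correlated at 0.16, 0.40 and 0.18 between VavCre Ter119+ and Kit+ libraries, and at 0.12, 0.11 and -0.05 between control Ter119+ and Kit+ libraries. Between VavCre and control they were 0.23, 0.25 and 0.29 in Kit+ and 0.13, 0.25 and 0.14 in Ter119+ libraries. For VavCre Ter119+ with control Kit+ they were -0.06, 0.11 and -0.19, and for VavCre Kit+ with control Ter119+ 0.05, 0.05 and -0.12. Not every pair of groups agreed, so the numbers were not taken to pair all 12. Of the named genes, 5 gained a call under each block and none lost it. The edgeR and DESeq2 alternatives were not run, and voom on the recovered whole reads stands in their place.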
